A study of Rattus norvegicus with 3 samples.

Results

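Genes of fatty acid synthesis, oxidation and storage were compared between rat induced pluripotent stem (iPS) cells and adult rat cells. They were chosen by the gene names printed in the array design, namely the families Acad, Acaa, Acac, Acsl, Acot, Cpt, Fads, Elovl, Hadh, Fabp and Pex together with Fasn, Scd1, Scd2, Acly, Echs1, Lpl, Lipe, Cd36 and Adipoq. This gave 67 genes, carried by 94 probes in 121 spots, of 35498 genes or other named units on the array. The iPS cells were of the line M13, were untreated, and were grown on a feeder layer of irradiated mouse embryonic fibroblasts. Their RNA was labelled with Cy3 on each of 3 two-colour whole-genome arrays. The other dye, Cy5, carried an RNA named mix1 on all 3 arrays, a mixture made from cultured cells of rat bone marrow and fibroblasts grown from rat ears. M13 is 1 line, and the shares of the 2 cell types in mix1, the rat strain and the age of the donors are not given in the sources used here.

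The labels call the 3 arrays repeats of 1 sample group and do not say that they came from separate cultures. The p-values therefore measure only how far these samples spread, and that spread may be technical. Because mix1 was 1 control RNA, its own spread is left out of every test. No dye was swapped, so an effect of dye and an effect of group cannot be told apart. The 3 arrays shared 1 slide and 1 scan date. Between 53.4% and 60.7% of probes were well above background in the iPS M13 channel and between 52.3% and 60.9% in the mix1 channel. Pairs of arrays had a correlation of 0.997 to 0.998 in their log2 ratios over genes, and genes are not independent replicates. Of 6 measured pluripotency markers 5 were higher in iPS M13, whereas Lin28a had a log2 ratio of -0.15 ± 0.04 (SD, n = 3). All 10 measured fibroblast markers and all 10 measured macrophage markers were lower, with median log2 ratios of -7.35 and -5.23. Mouse RNA from the feeder layer could have hybridised to these rat probes, and its part in the results was not tested.

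Cells build fatty acids in the cytosol from citrate-derived acetyl-CoA, then desaturate and elongate them in the endoplasmic reticulum. For oxidation, fatty acids are first joined to coenzyme A, passed into mitochondria as carnitine esters, and shortened by a repeating cycle of dehydrogenation, hydration, dehydrogenation and thiolysis. Peroxisomes shorten very long and branched chains. Fatty acid-binding proteins carry fatty acids through the cytosol, and adipocytes store them as triglyceride. Pluripotent cells in culture are known for a high rate of lipid synthesis, and fibroblasts and macrophages take up and oxidise fatty acids.

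All values are log2 ratios of iPS M13 over mix1, so a positive value means more signal in iPS M13. A gene counted as measured if a probe was well above background in the same RNA on all 3 arrays, which held for 56 of the 67 genes. The other 11, namely Acacb, Elovl3, Fads6, Acsl6, Acot12, Fabp1, Fabp2, Fabp6, Fabp7, Fabp9 and Lipe, were not. A gene was called higher or lower at an adjusted p under 0.05 by limma with a log2 ratio of at least 1 in either direction, that is 2-fold. Since 19528 of 20323 genes passed the adjusted p alone, the fold decided most calls. In bulk RNA, fewer cells of a type and less RNA per cell cannot be told apart.

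The largest differences among these genes lay in desaturation and elongation, in binding and storage, and in oxidation. The elongases Elovl7 and Elovl2 and the adipokine Adipoq were higher in iPS M13. All 5 measured desaturases, the binding protein Fabp3 and the oxidation enzyme Acadvl (-3.60) were lower. The core enzymes of fatty acid synthesis, Acly, Acaca and Fasn, were not called in either direction. In all, 5 of the 56 measured genes (8.93%) were called higher, against 18.8% of all 20323 genes tested. A further 20 (35.7%) were called lower, against 25.4% of all genes, and 31 were not called. Calls in either direction made up 44.2% of all genes tested. The median log2 ratio of the 56 genes was -0.46, against -0.02 over all genes. Adjusted p-values of the 25 called genes ran from 6.2e-07 to 7.25e-05 by limma. Elovl7, Elovl2, Adipoq, Fads2, Cd36, Fabp4, Fabp3 and Acadsb counted as measured only through the RNA where they were brighter. Their p-values are therefore no support for a difference. On every array the sign was the same for 55 of the 56, Acsl5 being the exception.

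The share of genes lying above or below 0 depended on how the arrays were scaled. Median centring in place of loess moved the median of all genes from -0.02 to 0.58, and the scanner software's processed signals moved it to 0.29. Of the genes called over the whole array 42.5% were higher under loess, 67.2% under median centring and 56.6% with the processed signals. The fatty acid genes moved with them, from 5 higher and 20 lower to 14 and 13 under median centring, and to 11 and 17 with the processed signals. Of all genes tested 36.4% were higher and 17.8% lower under median centring, and 31.1% and 23.8% with the processed signals. Relative to the median of all genes the fatty acid genes' median was -0.44 under loess and between -0.62 and -0.29 over 12 alternatives. Of the 25 calls 18 held under every alternative in which the gene was tested, 7 were lost under at least 1, and none was reversed. The 18 were Elovl7, Elovl2, Adipoq, Acsl1 and Cpt1b on the higher side, and Scd, Scd2, Fads1, Fads2, Fads3, Cpt2, Cpt1c, Acadvl, Acadsb, Lpl, Cd36, Fabp3 and Fabp4 on the lower side.

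**Figure D1:**
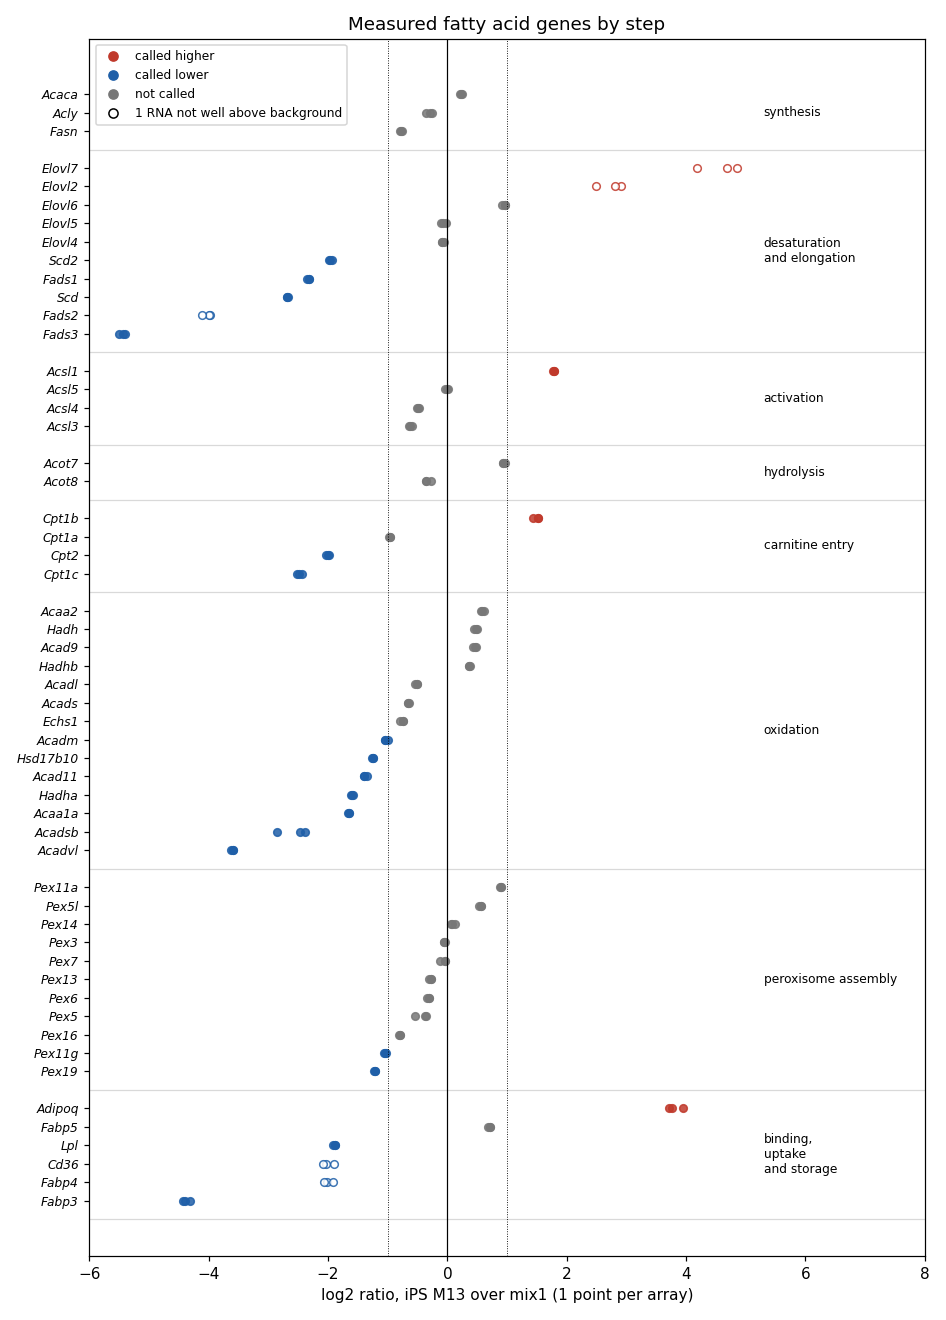
Log2 ratio of iPS M13 over mix1 (x axis) on each of 3 arrays (points) for 54 of the 56 measured genes, ordered by step; red is called higher, blue called lower, grey not called, open points have 1 RNA not well above background, and dotted lines mark -1 and 1. The points of a gene lie close together, and the 5 red genes are Elovl7, Elovl2, Acsl1, Cpt1b and Adipoq; genes between the dotted lines can change sign with the scaling, as Acly, Acsl4 and Pex7 did under median centring.

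Fatty acid synthesis starts with ATP citrate lyase (Acly), which makes cytosolic acetyl-CoA. Its log2 ratio was -0.25, -0.36 and -0.29 on replicates 1, 2 and 3, a mean of -0.30 ± 0.05 (SD, n = 3) that became 0.13 under median centring. Acaca encodes acetyl-CoA carboxylase alpha, which makes malonyl-CoA, and gave 0.25, 0.22 and 0.21, a mean of 0.23 ± 0.02 (SD, n = 3). A second probe for Acaca read -0.49, so the sign of this gene depended on the probe. Fasn, the fatty acid synthase, gave -0.80, -0.78 and -0.76, a mean of -0.78 ± 0.02 (SD, n = 3), and its second probe read -0.09. Fasn kept a negative sign and no call under every alternative. None of the 3 reached 2-fold, although the adjusted p was between 8.15e-06 and 0.000714 by limma. Acacb, the carboxylase isoform at the outer mitochondrial membrane, was well above background on all arrays in neither RNA.

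Desaturases put double bonds into fatty acyl chains, Scd and Scd2 at the delta-9 position and Fads1 and Fads2 at the delta-5 and delta-6 positions. All 5 measured desaturases were lower in iPS M13, also under median centring and with the processed signals. Fads3, a desaturase of sphingoid bases, was the lowest, at -5.44, -5.41 and -5.50 (mean -5.45 ± 0.05 SD, n = 3; 43.7-fold lower). Its log2 signal was 9.24, 9.17 and 9.14 in iPS M13 and 14.68, 14.58 and 14.64 in mix1, so the RNAs did not overlap. Fads2 read -3.99, -4.00 and -4.12 (mean -4.03 ± 0.07 SD, n = 3). No array had it well above background in iPS M13, and it was at least 8.89-fold lower. This bound, like those that follow, is for the brightest kept probe, which stands for the gene. It divides the bright RNA's mean signal by the dim RNA's. On each array the dim RNA counts at no less than the lowest signal that was well above background there.

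The other desaturases were measured in both RNAs on all 3 arrays. Scd, listed in the array design as Scd1 and known as the main stearoyl-CoA desaturase of liver and fat, gave -2.70, -2.68 and -2.68 (mean -2.69 ± 0.01 SD, n = 3; 6.43-fold lower). Scd2, the form prominent in brain and in early development, gave -1.93, -1.97 and -1.98 (mean -1.96 ± 0.02 SD, n = 3; 3.89-fold lower). Its other probes read -2.33 and -1.51, so all 3 lay past 2-fold on the same side. Fads1 gave -2.32, -2.33 and -2.36 (mean -2.33 ± 0.02 SD, n = 3). By limma the adjusted p of the desaturases other than Fads2 was between 6.26e-07 and 1.43e-06. Fads2 counted as measured only through mix1, so no p-value is given for it. Fads6 had no kept probe.

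Of the probes behind these values, those of Fads2 and Fads3 cross an exon junction, since their 60 bases were listed over a span of 6204 and 1287 bases. They are shown because these genes had the lowest ratios among the desaturases, that of Fads2 against a dim iPS M13 signal. Positions refer to rn3, per the file headers, chr1:212691418-212697621 for Fads2 and chr1:212663574-212664860 for Fads3, and the letters are as deposited.
Fads2: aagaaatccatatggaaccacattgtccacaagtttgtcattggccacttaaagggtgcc
Fads3: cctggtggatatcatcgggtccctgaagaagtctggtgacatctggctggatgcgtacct

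The 5 desaturase genes lie on chromosome 1, the Fads genes close together and Scd close to Scd2, in RefSeq's table for GRCr8. CCAAT letters, the core of the box bound by the factor NF-Y, occurred on either strand within 250 bases before to 50 after the start in 3 of the 5, namely Scd2, Fads1 and Fads3. They occurred in 12549 of 33469 RefSeq promoters of the same length (37.5%) and in 23 of the 53 promoters found for the fatty acid genes (43.4%). Such a match is a description of the letters and not evidence of binding. The 250 bases before each start are shown for those 3 genes with the CCAAT letters, or ATTGG on the other strand, in capitals, from RefSeq GRCr8 at chr1:253118127-253118376, chr1:216252442-216252691 and chr1:216110623-216110872, all on the plus strand.
Scd2: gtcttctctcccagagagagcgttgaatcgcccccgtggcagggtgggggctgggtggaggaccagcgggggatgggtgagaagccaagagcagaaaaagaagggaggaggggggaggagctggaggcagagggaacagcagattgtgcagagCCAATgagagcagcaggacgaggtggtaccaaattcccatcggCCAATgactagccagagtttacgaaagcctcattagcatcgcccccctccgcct
Fads1: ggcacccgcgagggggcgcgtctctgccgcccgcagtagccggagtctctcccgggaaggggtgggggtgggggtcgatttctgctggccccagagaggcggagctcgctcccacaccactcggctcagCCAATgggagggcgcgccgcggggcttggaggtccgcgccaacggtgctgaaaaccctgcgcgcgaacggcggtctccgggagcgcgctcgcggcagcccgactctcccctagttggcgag
Fads3 promoter: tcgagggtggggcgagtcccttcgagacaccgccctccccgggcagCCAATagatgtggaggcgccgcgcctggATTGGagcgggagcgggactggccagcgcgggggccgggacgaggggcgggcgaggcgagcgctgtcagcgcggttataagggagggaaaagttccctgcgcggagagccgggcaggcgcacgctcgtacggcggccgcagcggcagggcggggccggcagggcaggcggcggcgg

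Other motifs were also searched on both strands. The GC box GGGCGG was found in 32 of 53 promoters of the fatty acid genes (60.4%) and in 33.1% of all promoters. It was in 3 of the 5 desaturase promoters, as many as held CCAAT letters. The E-box CACGTG was found in 2 of 53, against 6.42% of all. The sterol regulatory element SRE-1 was in none of the 53 and in 42 promoters overall. The direct repeat DR1, the form bound by peroxisome proliferator-activated receptors, was in 1 of the 53, that of Fads6, and in 18 overall. No match says only that these letters are not in this window.

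Elongases add carbon pairs to fatty acyl chains, and the 5 measured members of the Elovl family ranged from no difference to the highest ratio of all the fatty acid genes. Elovl7, which elongates saturated and monounsaturated very long chains, gave 4.68, 4.18 and 4.86 (mean 4.57 ± 0.35 SD, n = 3). Its log2 signal was 11.37, 11.45 and 11.38 in iPS M13 and 6.69, 7.27 and 6.52 in mix1, where no array had it well above background. On this probe Elovl7 was at least 17.7-fold higher in iPS M13. A second Elovl7 probe, also dim in mix1, read only 0.75 and was at least 1.67-fold higher. This was the widest gap between probes of a gene in this set, and the mean over both probes was 2.66. Elovl2, an elongase of polyunsaturated chains, gave 2.92, 2.48 and 2.81 (mean 2.74 ± 0.23 SD, n = 3). Elovl7 and Elovl2 counted as measured only through iPS M13, so no p-value is given for them. By its brightest probe Elovl2 was at least 6.31-fold higher, mix1 again being not well above background. Its second probe, also dim in mix1, read 1.86 and was at least 3.26-fold higher.

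Elovl6, which extends palmitate to stearate, gave 0.91, 0.96 and 0.96 (mean 0.94 ± 0.03 SD, n = 3) and fell just short of 2-fold. It was called under median centring at 1.66 and with the processed signals at 1.16, and its second probe read 0.14. Elovl5 and Elovl4 lay near 0, at -0.07 ± 0.04 and -0.08 ± 0.02 (SD, n = 3), and turned positive under median centring. Elovl3 was not measured. On the same arrays the log2 ratio of Elovl6 exceeded that of Scd by 3.63 ± 0.02 (SD, n = 3), and by 3.23 to 3.67 over the alternatives.

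**Figure D2:**
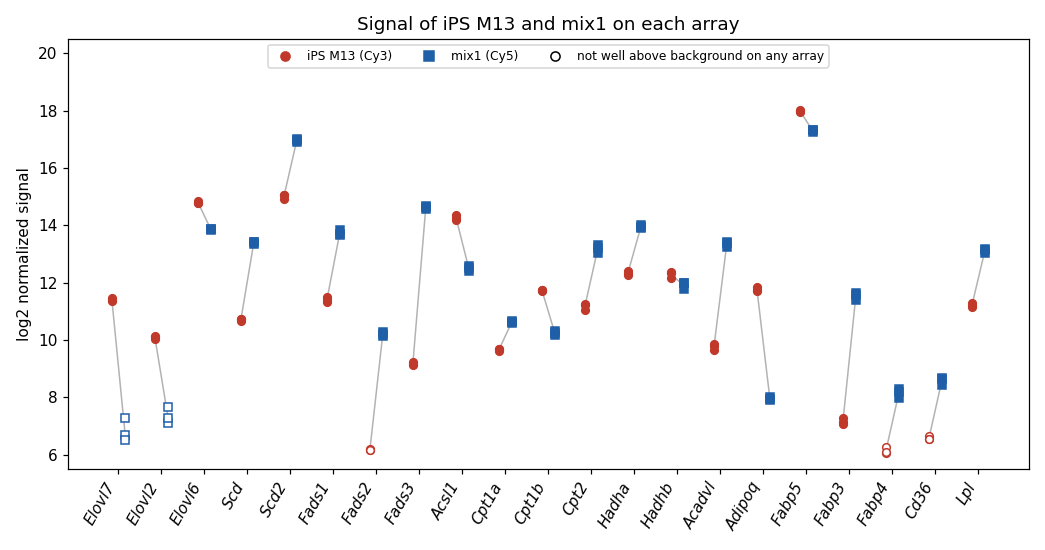
Log2 normalized signal (y axis) on each of 3 arrays for 21 of the fatty acid genes, with iPS M13 as red circles and mix1 as blue squares; open symbols were not well above background on any array, and grey lines join the means. Probes differ in response, so only the 2 RNAs of 1 gene can be compared; Elovl7 had a mean of 11.40 in iPS M13 and 6.83 in mix1, and Fads3 had 9.18 and 14.63.

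Acyl-CoA synthetases activate fatty acids by joining them to coenzyme A. Acsl1, the form that prevails in liver, heart and fat, was higher in iPS M13 at 1.77, 1.79 and 1.79 (mean 1.78 ± 0.01 SD, n = 3; 3.44-fold, adjusted p = 1.18e-06 by limma). Its 4 probes read between 1.07 and 1.78. Acsl4, which prefers arachidonate, and Acsl3, which acts at lipid droplets, were not called, at -0.49 ± 0.02 and -0.62 ± 0.02 (SD, n = 3), and both turned positive under median centring. Acsl5 lay at -0.01 ± 0.03 (SD, n = 3) and Acsl6 was not measured. The gap between the log2 ratios of Acsl1 and Acsl3 within an array was 2.37, 2.41 and 2.43. Of the thioesterases, which reverse activation, Acot7 gave 0.94, 0.97 and 0.93 (mean 0.95 ± 0.02 SD, n = 3) and was called at 1.78 under median centring. Acot8, the peroxisomal form, lay at -0.33 ± 0.05 (SD, n = 3), and Acot12 was not measured.

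Carnitine palmitoyltransferases pass long-chain acyl groups into mitochondria, and their isoforms differed in direction. Cpt1b, known as the muscle isoform of the outer membrane, was higher at 1.53, 1.43 and 1.52 (mean 1.49 ± 0.05 SD, n = 3; 2.81-fold, adjusted p = 6.61e-06 by limma). A second Cpt1b probe was dim in both RNAs. Cpt1a, known as the liver isoform, gave -0.97, -0.96 and -0.97 (mean -0.97 ± 0.01 SD, n = 3) and was not called. Cpt1a was called at -1.01 when normexp had no offset, and ran from there to -0.21 over the alternatives. Cpt1c, known from the endoplasmic reticulum of neurons, was lower at -2.44, -2.48 and -2.52 (mean -2.48 ± 0.04 SD, n = 3; 5.59-fold). Cpt2, the inner-membrane enzyme that returns acyl groups to coenzyme A, was lower at -2.00, -2.03 and -1.99 (mean -2.00 ± 0.02 SD, n = 3; 4.01-fold). Within arrays the log2 ratio of Cpt1b exceeded that of Cpt1a by 2.46 ± 0.06 (SD, n = 3), and by 2.04 to 2.63 over the alternatives. Of 8 muscle markers 4 were measured, and under loess Myh3 was called higher at 1.06 ± 0.17 with mix1 well above background on 1 of 3 arrays (0.967 and not called without replicate 1), Mb read 0.57 ± 0.03, Actc1 -0.42 and Tnnt2 was called lower at -1.27. Under median centring 2 of the 4 were called higher and none lower, with a median of 0.89, and Tnnt2 lost its call there, without normalization and with the probe GC correction. Their part in the Cpt1b value was not tested.

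Under loess 7 of 14 oxidation genes were lower (50%, against 25.4% of all genes tested) and none was higher (against 18.8%). Median centring turned the counts to 2 lower and 4 higher, where 17.8% of all genes were lower and 36.4% higher. Acadvl, the very long-chain acyl-CoA dehydrogenase that takes the first step of the mitochondrial cycle, was the lowest at -3.62, -3.59 and -3.60 (mean -3.60 ± 0.02 SD, n = 3; 12.1-fold lower). Its second probe read -3.18. Acadsb, which acts on short branched chains, gave -2.47, -2.39 and -2.85 (mean -2.57 ± 0.25 SD, n = 3), with iPS M13 well above background on 2 of 3 arrays. These 2 genes kept their calls under every alternative in which they were tested. By limma the adjusted p of Acadvl was 6.2e-07.

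The medium-chain dehydrogenase Acadm sat at the threshold, at -1.001, -1.049 and -1.053 (mean -1.03 ± 0.03 SD, n = 3), and lost its call at -0.18 under median centring. Acadl and Acads, for long and short chains, were not called at -0.51 ± 0.02 and -0.66 ± 0.01 (SD, n = 3), and both were positive under median centring. Acad11 was lower at -1.38 ± 0.03 and Acad9, which also takes part in assembly of respiratory complex I, was not called at 0.46 ± 0.02 (SD, n = 3). Acad11 was at -0.96 and Acad9 at 1.28 under median centring. Echs1, the short-chain enoyl-CoA hydratase, gave -0.76 ± 0.03 (SD, n = 3) and was called under none of the alternatives.

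The mitochondrial trifunctional protein takes the last 3 steps of the cycle for long chains, and its subunits read in opposite directions. Hadha, the alpha subunit, gave -1.62, -1.59 and -1.60 (mean -1.60 ± 0.02 SD, n = 3; 3.03-fold lower, adjusted p = 1.57e-06 by limma). Hadhb, the beta subunit, gave 0.36, 0.39 and 0.36 (mean 0.37 ± 0.02 SD, n = 3) and was not called. The log2 ratio of Hadha minus that of Hadhb was -1.98, -1.97 and -1.95 within the 3 arrays and ran from -2.02 to -1.46 over the alternatives. Under median centring Hadha lost its call at -0.77 and Hadhb was called higher at 1.22, so the scaling moved both genes but not the order between them. A second Hadha probe read -1.19 and another was not kept.

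Hadha and Hadhb are transcribed away from each other from starts that lie 300 bases apart in RefSeq GRCr8, at chr6:31907501-31907800. That whole stretch is shown on the plus strand because both genes share it, with Hadhb to its left and Hadha to its right. It held 2 GC boxes, in capitals as their reverse complement CCGCCC, and no CCAAT letters.
Hadhb to Hadha: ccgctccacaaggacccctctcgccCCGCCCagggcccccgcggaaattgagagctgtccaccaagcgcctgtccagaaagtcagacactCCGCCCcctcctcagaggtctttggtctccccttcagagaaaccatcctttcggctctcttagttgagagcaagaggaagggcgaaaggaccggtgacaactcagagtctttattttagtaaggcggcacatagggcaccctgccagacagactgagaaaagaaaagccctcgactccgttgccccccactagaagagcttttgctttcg

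The single-function enzymes of the same steps were also split. Hadh, the short-chain hydroxyacyl-CoA dehydrogenase, and Acaa2, the mitochondrial thiolase, were not called at 0.47 ± 0.03 and 0.59 ± 0.03 (SD, n = 3). Both were called higher under median centring, at 1.17 and 1.44. Hsd17b10, a mitochondrial dehydrogenase listed in the array design as Hadh2, was lower at -1.25 ± 0.01 (SD, n = 3) and lost its call at -0.53 under median centring. Acaa1a, the peroxisomal thiolase listed as Acaa1, was lower at -1.67, -1.65 and -1.65 (mean -1.66 ± 0.01 SD, n = 3; 3.15-fold) and stood at -0.97 under median centring. The log2 ratio of the mitochondrial thiolase exceeded that of the peroxisomal one by 2.24 ± 0.02 (SD, n = 3) within arrays, and by 1.93 to 2.51 over the alternatives.

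Peroxins import enzymes into peroxisomes or shape the organelle, and most of them lay close to 0. Of 13 measured, 2 were lower (15.4%, against 25.4% of all genes tested) and none higher under loess. Median centring gave 3 higher and none lower, against 36.4% and 17.8% of all genes. Pex19, the chaperone that brings membrane proteins to the peroxisome, gave -1.23, -1.21 and -1.21 (mean -1.21 ± 0.01 SD, n = 3) and moved to -0.38 under median centring. Its brightest probe was listed on chromosome 13, and its other probes, which read -1.07 or were dim, on chromosome 18. Pex11g, a division factor listed as Pex11c, was lower at -1.04 ± 0.02 (SD, n = 3) and stood at -0.21 under median centring. Pex5, the import receptor for most matrix enzymes, gave -0.55, -0.37 and -0.36 (mean -0.43 ± 0.10 SD, n = 3) and was not called.

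The remaining peroxins showed no call under loess. Pex11a, a peroxisome division factor, was the highest at 0.89 ± 0.01 (SD, n = 3), with a second probe at 0.38. Within arrays the log2 ratio of Pex11a exceeded that of Pex11g by 1.94 ± 0.02 (SD, n = 3). Pex16, which takes part in membrane assembly, was next lowest after the called genes at -0.80. Pex14, part of the import machinery, read 0.09. Pex3, Pex7, Pex13 and Pex6 lay between -0.31 and -0.05, and all 4 turned positive under median centring. The probe named Pex2 carried an accession that now belongs to Pex5l, a paralogue of the import receptor, and read 0.55 ± 0.02 (SD, n = 3). No value for peroxin 2 itself is given.

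Of the genes for binding, uptake and storage 6 of 12 were measured. Among these 1 was higher (16.7%, against 18.8% of all genes tested) and 4 were lower (66.7%, against 25.4%). Adipoq, the adipocyte hormone adiponectin, was higher in iPS M13 at 3.95, 3.72 and 3.76 (mean 3.81 ± 0.13 SD, n = 3; 14.0-fold). Its log2 signal was 11.86, 11.74 and 11.71 in iPS M13 and 7.90, 8.02 and 7.95 in mix1, which was well above background on 2 of 3 arrays. Other adipocyte markers did not share this direction. Of 12 fixed adipocyte markers 5 were measured, and 4 of those were lower, namely Cfd (at least 18.3-fold), Slc2a4 (at least 4.85-fold), Cidea (at least 3.59-fold) and Fabp4. Lep, Retn, Plin1, Cidec, Pparg, Cebpa and Lipe were not measured. The Adipoq value rests on 1 probe in 1 spot per array, listed at chr11:79966064-79966123 in rn3, whose letters are shown so that this reading can be followed up.
Adipoq: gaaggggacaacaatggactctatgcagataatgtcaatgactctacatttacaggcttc

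Fatty acid-binding proteins split by member. Fabp5, the epidermal form, was among the brightest probes, with a log2 signal of 17.95, 18.02 and 17.99 in iPS M13 against 17.24, 17.31 and 17.31 in mix1. Its ratio was 0.71, 0.71 and 0.68 (mean 0.70 ± 0.02 SD, n = 3), which was not called, although the processed signals gave a call at 1.19. Krt14, the 1 measured keratinocyte marker of 6, read 0.13. Fabp3, the heart form, was lower at -4.43, -4.31 and -4.39 (mean -4.38 ± 0.06 SD, n = 3; 20.8-fold), with iPS M13 well above background on 1 of 3 arrays. Fabp4, the form of adipocytes and macrophages, gave -2.02, -1.93 and -2.08 (mean -2.01 ± 0.08 SD, n = 3) and was at least 2.13-fold lower, iPS M13 being dim on all arrays. The log2 ratio of Fabp5 minus that of Fabp3 was 5.14, 5.03 and 5.07 within arrays. Fabp7, the brain form, was well above background in iPS M13 on 2 of 3 arrays and so was not tested.

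Cd36, a fatty acid receptor of macrophages and adipocytes, was carried by 10 spots per array. It gave -2.04, -1.89 and -2.09 (mean -2.01 ± 0.10 SD, n = 3) and was at least 2.88-fold lower, since iPS M13 was not well above background. Lpl, the lipoprotein lipase that frees fatty acids from circulating lipoproteins, gave -1.92, -1.88 and -1.89 (mean -1.90 ± 0.02 SD, n = 3; 3.72-fold lower, adjusted p = 1.35e-06 by limma). Its second probe read -1.89. Cd36, Lpl and Fabp4 were lower, as were all 10 measured macrophage markers, by a log2 ratio of -1.11 to -7.49. All 10 measured fibroblast markers were lower too, with a median of -7.35. The part of macrophages or fibroblasts in mix1 in the Cd36, Lpl and Fabp4 values was not tested. Lipe, the hormone-sensitive lipase, was not measured. The Cd36 and Fabp4 probes also cross exon junctions, at chr4:13518295-13519542 and chr2:93481137-93483551 in rn3, and are shown because both readings stood against a dim RNA.
Cd36: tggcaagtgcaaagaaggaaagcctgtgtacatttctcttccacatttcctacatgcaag
Fabp4: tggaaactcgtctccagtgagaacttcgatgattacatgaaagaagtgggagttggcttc

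**Figure D3:**
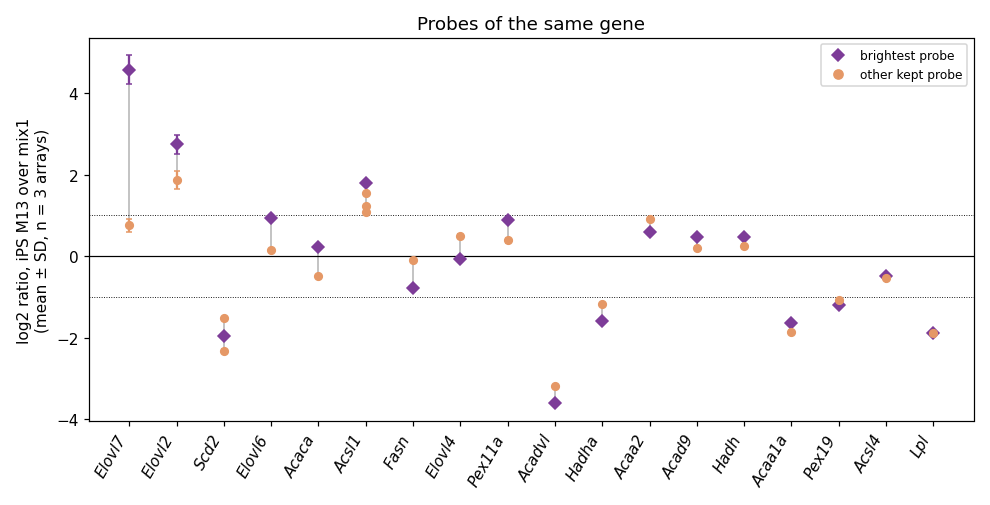
Log2 ratio of iPS M13 over mix1 (y axis, mean ± SD, n = 3 arrays) for every kept probe of 18 genes with several kept probes; purple diamonds are the brightest probe, which stands for the gene, orange circles the others, and grey lines join probes of a gene. The median gap between probes was 0.47, the widest was 3.82 in Elovl7, and the sign differed between probes of Acaca and Elovl4.

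Agreement between probes was looser than agreement between arrays. The 56 measured genes had a median SD of 0.0223 between arrays, from 0.00791 to 0.353, whereas the 18 genes plotted with several kept probes had a median gap of 0.47 between their lowest and highest probe. Acsl1, Scd2, Elovl2, Acadvl, Hadha, Acaa1a, Pex19 and Lpl had every kept probe past 2-fold in the same direction. Elovl7 had 1 of 2. The letters of a probe also went with its ratio, since kept probes over the whole array lost 0.44 on the log2 scale per 10% GC. Probes of the 5 higher genes had a median GC content of 36.7% and those of the 20 lower genes 45%, against 43.3% over all genes. With that trend taken off 9 of the fatty acid genes were higher and 15 lower, against 24.9% and 20.2% of all genes.

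Neighbouring genes of the pathway were taken from 5 lists. Over all genes tested 18.8% were higher and 25.4% lower under loess, and 36.4% and 17.8% under median centring. Of other mitochondrial and peroxisomal oxidation genes 27 of 32 were measured, 2 higher and 8 lower, with a median of -0.74 that moved to -0.04 under median centring. The 8 include Hsd17b10, which was already counted among the oxidation genes above. Abcd2, a peroxisomal transporter of very long chains, was called higher at 1.58, 0.79 and 1.86 (mean 1.41 ± 0.55 SD, n = 3), with mix1 well above background on 2 of 3 arrays. Eci1, which shifts double bonds during oxidation of unsaturated chains, was lowest at -4.61 ± 0.11 (SD, n = 3), and Phyh, which starts the breakdown of phytanic acid, was at -2.82 ± 0.14 (SD, n = 3), with iPS M13 well above background on 2 of 3 arrays. These 3 kept their calls under every alternative in which they were tested.

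Other synthesis genes included 12 measured of 16, with none higher, 6 lower and a median of -0.68 that moved to 0.01 with 4 higher and 3 lower under median centring. Cyb5r3, a reductase that feeds electrons to the desaturases, was lower at -2.86, -2.87 and -2.88 (mean -2.87 ± 0.01 SD, n = 3). Slc25a1, the carrier that exports citrate for synthesis, was lower at -2.13 ± 0.01 (SD, n = 3). Among other uptake and activation genes 14 of 22 were measured, 2 higher and 7 lower, with a median of -1.19, or -0.49 under median centring. Vldlr, a lipoprotein receptor, was lower at -5.20 ± 0.04 (SD, n = 3), with iPS M13 well above background on only 1 of 3 arrays. The fatty acid transporter Slc27a1 was lower at -2.87 ± 0.03 (SD, n = 3). Slc27a6, another transporter of that family, was at least 4.14-fold higher, and the endothelial lipase Lipg at least 2.50-fold higher, mix1 being dim for both. Of 6 endothelial markers 2 were measured, with Tek at least 3.46-fold higher and Kdr not called at -0.86.

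Triglyceride and lipid droplet genes had 21 measured of 29, with 1 higher and 7 lower and a median of -0.52, or 0.09 with 5 higher and 6 lower under median centring. G0s2, an inhibitor of the triglyceride lipase Pnpla2, was at least 86.0-fold lower. Dgat1, which makes triglyceride from diglyceride, was lower at -3.71, -3.67 and -3.68 (mean -3.69 ± 0.02 SD, n = 3). Pnpla3, a lipid droplet acylhydrolase, was at least 2.14-fold higher. Among 27 lipid regulators 18 were measured, 3 higher and 7 lower, with a median of -0.76 that moved to -0.03 with 4 higher and 3 lower under median centring. Prkaa2, a catalytic subunit of AMP-activated kinase, was higher at 3.23 ± 0.16 (SD, n = 3), with mix1 well above background on 2 of 3 arrays. Rxrg, a retinoid X receptor, gave 2.10 ± 0.50 (SD, n = 3), with mix1 well above background on only 1 of 3 arrays. Cebpb, a factor of adipocyte and macrophage differentiation, was lower at -5.68 ± 0.03 (SD, n = 3), with iPS M13 well above background on 2 of 3 arrays. Insig1, which restrains sterol-regulated factors, gave -2.28 ± 0.05 (SD, n = 3).

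**Figure D4:**
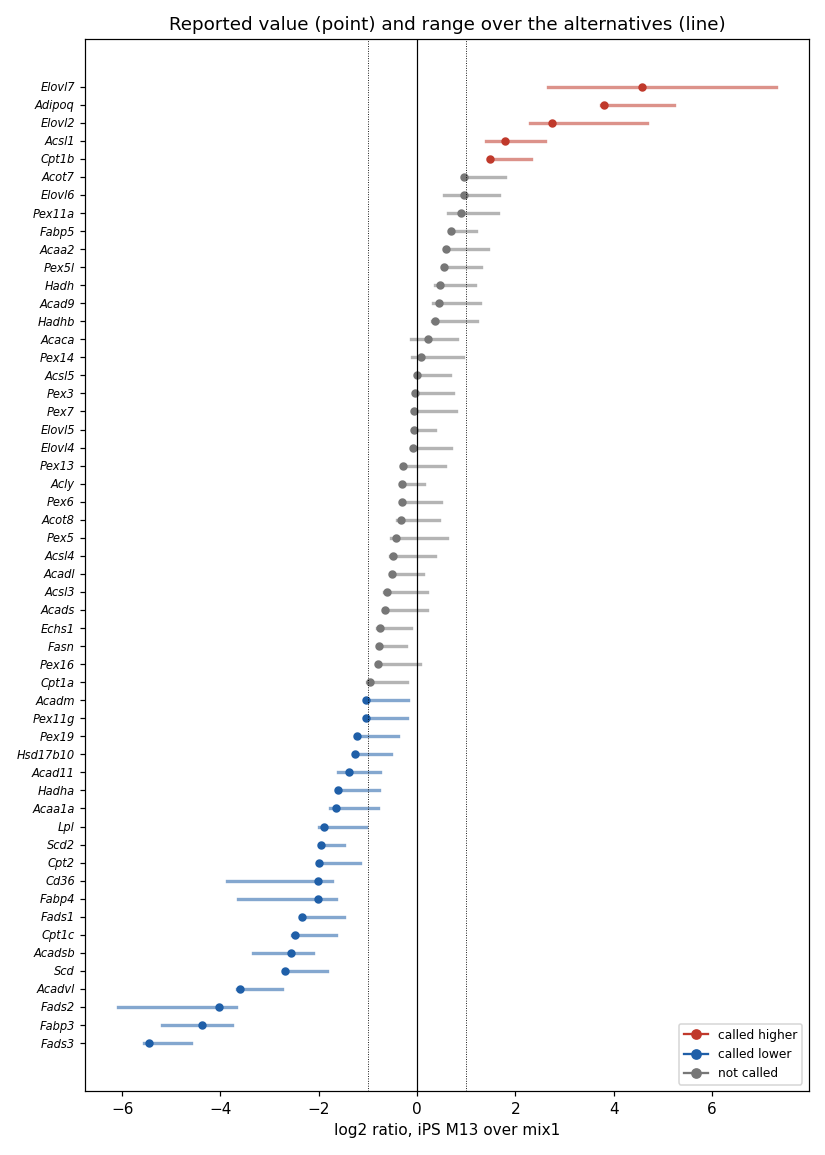
Log2 ratio of iPS M13 over mix1 (x axis) for 54 of the 56 measured genes as reported (points) and over the alternatives (lines from the lowest to the highest value); colours give the call as reported and dotted lines mark -1 and 1. The lines of Elovl7, Adipoq, Elovl2, Acsl1 and Cpt1b stay right of 1 and those of the 13 lowest genes stay left of -1, whereas 17 grey lines cross 0.

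The scaling moved called genes as well, such as Hadha from -1.60 to -0.77 under median centring. The 31 genes that were not called all lay within 2-fold, where a change of scaling can turn a sign or give a call. Of these 18 changed sign under at least 1 alternative, another 11 kept their sign and were called under at least 1, and 2, Fasn and Echs1, did neither. Acaa2, Hadh, Acad9, Hadhb, Acot7, Elovl6, Pex11a and Pex5l were among those called higher under median centring.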

How the data were processed

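Scanner files of 3 two-colour arrays were used, with iPS M13 RNA in Cy3 and mix1 RNA in Cy5 according to the labels. The deposited intensities were mean spot signals and median local backgrounds from Agilent Feature Extraction, which the submitters' processing notes name and whose version, 9.5.3.1, is per the file headers. The deposited log10 ratios were Cy5 over Cy3 of processed signals, per the file headers. Log2 ratios of unstated direction made up the value table that the authors deposited. Against the log10 ratios its columns had slopes of -3.32 on all 3 arrays, so it was read as log2 of the Cy3 signal over the Cy5 signal. Its column medians were -0.0413, -0.0282 and -0.0286, and whether it was centred is not known.

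Background was corrected by normexp (offset 50), followed by loess within arrays, control spots at weight 0, in limma 3.58.1 (R 4.3.3, the package data.table at version 1.17.8). Spots flagged as outliers (205, 263 and 192 on replicates 1, 2 and 3) were left out, and the 1 saturated spot was kept. Replicate spots of a probe were averaged. Kept probes were those well above background, in most of their usable spots, in 1 channel throughout the 3 arrays, which left 24149 of 41012. The brightest kept probe stood for a gene, giving 20323 genes, 11038 with a symbol. Names were updated through RefSeq gene records (GRCr8), by accession for 10735 probes, symbol for 5577, synonym for 3730, gene ID for 1217 and a further accession for 41, while 19712 kept the file's name. A further Pex19 probe listed under a locus name was not used for that gene.

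The mean log2 ratio was tested against 0 with lmFit and eBayes (1.57 prior degrees of freedom), with Benjamini-Hochberg adjustment over all genes. An exact two-sided sign-flip test with 3 arrays cannot give a p below 0.25 and was not used. For the lower bounds, signals were scaled by Aquantile after loess. The lowest mix1 signal well above background on replicate 2 was a log2 of 4.72, so dim signals there stayed as measured. Tested on simulated data of 20323 genes, the fit recovered 97% of 100 genes with a log2 ratio of 1.5 in either direction and 99% of 100 with 3, with 1 false call. The simulated log2 ratios carried only independent noise of the spread between arrays. Errors from dye, background or scaling were therefore not covered.

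Fatty acid genes are counted by step, and a few single values are not reported here. Values per array are given for up to 3 highest and 3 lowest called genes per step that were measured in both RNAs and for a fixed list of enzymes, and elsewhere for genes that a paragraph turns on. The other lists are given by counts, medians and their 2 highest and 2 lowest called genes. Members and lists were chosen with earlier results of these data known. The alternatives were median centring, no normalization within arrays, normexp without offset, processed signals, the value table, no filter on dim probes, both channels above background, the mean over probes, a probe GC correction, and leaving out each array. Names, sequences and figures were handled in Python 3.11.15 (numpy 2.4.6, pandas 2.3.3, matplotlib 3.10.9).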

Additional observations from a re-analysis of the deposited data

How the results depend on the processing

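Of the 25 called genes 18 kept their call under every alternative in which they were tested. Of the 31 genes not called 2 kept their side of the threshold and their sign throughout. The counts moved on both sides. Over all genes 3816 were higher, which became 7402 under median centring, 7002 without normalization within arrays, and 6312 with the processed signals or the value table. The fatty acid genes called higher went from 5 to 14 under median centring, 14 without normalization, 11 with the processed signals or the value table, 9 with the probe GC correction, and 2 with only genes above background in both channels. That last setting tested 48 of them. Of all genes tested, 18.8% were higher under loess, 36.4% under median centring and 34.5% without normalization. The share was 31.1% with the processed signals or the value table, 24.9% with the GC correction and 16.5% with both channels. The fatty acid genes called lower went from 20 to 13 under median centring, while the share of all genes called lower went from 25.4% to 17.8%. Leaving out 1 array gave 3741 to 3909 higher genes overall (18.4% to 19.2%), with 25.2% to 25.6% lower. The fatty acid genes stayed at 5 higher and 20 lower each time. Over all alternatives 640 values of 54 single fatty acid genes were recomputed, of which 530 kept direction and side of the threshold, 33 gained a call, 23 lost one and 54 changed sign. The last were all of genes that were not called. Under median centring they were Acly 0.13, Elovl5 0.36, Elovl4 0.69, Acsl5 0.67, Acsl4 0.36, Acsl3 0.21, Acadl 0.12, Acads 0.16, Pex3 0.74, Pex7 0.78, Pex13 0.56, Pex6 0.49 and Pex16 0.043. Without normalization within arrays they were Acly 0.077, Elovl5 0.31, Elovl4 0.63, Acsl5 0.61, Acsl4 0.30, Acsl3 0.15, Acadl 0.065, Acads 0.10, Pex3 0.68, Pex7 0.72, Pex13 0.50 and Pex6 0.43. The processed signals and the value table both gave Acly 0.016, Elovl5 0.18, Elovl4 0.31, Acsl5 0.18, Pex3 0.36, Pex7 0.34, Pex13 0.10 and Pex6 0.053. The mean over probes gave Acaca -0.13 and Elovl4 0.21. The probe GC correction gave Acly 0.062, Elovl4 0.18, Acsl5 0.35, Acot8 0.45, Acads 0.20, Pex14 -0.11, Pex7 0.30, Pex6 0.14, Pex5 0.61 and Pex16 0.056. Leaving out 1 array gave Acsl5 values from -0.0213 to 0.0047, the highest without replicate 1. The cause of these changes was not tested. With only genes above background in both channels, Elovl7, Elovl2, Adipoq, Fads2, Cd36, Fabp4, Fabp3 and Acadsb could not be tested. No paired analysis was possible because the 3 samples form 1 group and each was set against the same mix1.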
